A study of Mus musculus with 24 samples.

Results

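The genes described here are 10 genes that set the activity of mTORC1 or the function of the lysosome: Rptor, Mtor, Fnip1, Fnip2, Flcn, Rragc, Rragd, Tsc1, Lyst and Slc17a5. A peak was assigned to one of them when its summit lay in or nearest to that gene's RefSeq body, at most 50 kb away, among 21883 protein-coding genes. In all, 1433 of 1274891 peaks were assigned to them, 994 of these inside a gene body. Merging overlapping peaks of all libraries gave 103 regions at these genes of 102580 in the series, and 89 of these were found in at least 2 libraries, of 80598. The other 14 were found in 1 library each and were not compared. The genes were chosen by name, with the numbers of stimulated and unstimulated libraries that had a peak near genes of this series in view. Their values in that comparison are therefore given as a description, without p-values.

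Chromatin accessibility had been profiled by ATAC-seq, which uses the Tn5 transposase to cut and tag accessible DNA, in bone marrow-derived macrophages of male C57Bl/6 mice. The 4 groups of 6 libraries were diabetic macrophages with LPS and IFNγ, control macrophages with LPS and IFNγ, unstimulated diabetic macrophages and unstimulated control macrophages. Diabetic mice had received streptozotocin, which destroys the insulin-producing beta cells, and the wild-type controls had no treatment; the stimulus was 100 ng/mL LPS with 10 ng/mL IFNγ. The stimulation time is uncertain, the labels give no age, and diabetes here is a chemically induced insulin deficiency seen in macrophages grown outside the animal.

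The kinase complex mTORC1 works on the lysosomal surface, where it drives growth and restrains autophagy when amino acids and growth factors are plentiful. Rag GTPases bring it there on amino acid signals, and the GTPase Rheb, which the TSC complex holds back, switches it on. The transcription factors TFEB, TFE3 and MITF, which bind E-boxes in lysosomal and Rag GTPase genes, are kept out of the nucleus by active mTORC1. In macrophages the same system ties nutrient state to phagocytosis and to inflammatory activation.

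The starts of 4 of the 10 genes carried a motif among the 9 searched. The share of all promoters with any of the 9 was not counted, so nothing is read from that number. The promoter sequences of these 4 genes are shown because promoters are the stretches of open chromatin for which sequence was at hand. Each runs from 250 bases before to 50 bases after the gene start, 5′ to 3′ on the gene's strand, from RefSeq (GRCm38.p6), at chr11:54437929-54438228 (+) for Fnip1, chr4:123917183-123917482 (+) for Rragc, chr4:148448332-148448631 (+) for Mtor and chr2:28640983-28641282 (+) for Tsc1. Capitals mark CACGTG, the E-box, in Fnip1 and Rragc, CCGGAAGT, an ETS factor site, in Mtor, and TTTCGGTTT, a match to the interferon-stimulated response element TTTCNNTTT, in Tsc1.
Fnip1: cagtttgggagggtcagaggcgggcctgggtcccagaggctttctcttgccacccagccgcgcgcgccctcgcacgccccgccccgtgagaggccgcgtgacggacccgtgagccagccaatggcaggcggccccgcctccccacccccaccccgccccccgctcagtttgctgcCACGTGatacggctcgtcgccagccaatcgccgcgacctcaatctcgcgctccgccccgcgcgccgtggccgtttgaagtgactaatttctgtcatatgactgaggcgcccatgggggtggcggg
Rragc: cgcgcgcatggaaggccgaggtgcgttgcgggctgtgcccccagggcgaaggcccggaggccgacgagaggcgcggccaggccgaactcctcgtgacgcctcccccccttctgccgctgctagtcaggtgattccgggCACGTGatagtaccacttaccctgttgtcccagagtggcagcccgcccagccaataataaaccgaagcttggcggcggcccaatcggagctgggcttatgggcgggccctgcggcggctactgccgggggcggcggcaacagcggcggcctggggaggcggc
Mtor: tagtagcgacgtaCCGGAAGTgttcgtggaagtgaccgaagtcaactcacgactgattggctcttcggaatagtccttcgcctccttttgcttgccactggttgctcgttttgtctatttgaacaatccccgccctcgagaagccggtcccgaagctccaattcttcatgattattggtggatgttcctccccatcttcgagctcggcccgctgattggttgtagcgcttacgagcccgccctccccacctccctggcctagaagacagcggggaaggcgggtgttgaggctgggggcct
Tsc1: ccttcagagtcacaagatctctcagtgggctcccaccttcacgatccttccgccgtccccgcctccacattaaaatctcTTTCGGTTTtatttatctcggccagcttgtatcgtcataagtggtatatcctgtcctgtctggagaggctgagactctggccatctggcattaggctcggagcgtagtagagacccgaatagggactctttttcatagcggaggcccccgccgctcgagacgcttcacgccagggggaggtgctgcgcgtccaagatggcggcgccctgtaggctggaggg

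The E-box began at -75 in Fnip1 and at -112 in Rragc, counted in bases from the gene start, and 7.24% of 27025 promoters of the same length hold it on either strand. The longer E-box TCACGTGA, which overlaps the shorter one, is in 1.01% of promoters and in none of these 10. The Mtor site began at -237, and 4% of all promoters hold its letters. The Tsc1 match began at -171, and 10.7% of promoters hold such a match. None of the 10 promoters held the AP-1 letters TGANTCA (7.93% of promoters), the PU.1 letters GAGGAAGT (3.28%), the NF-κB letters GGGANTTTC (1.15%), the C/EBP letters TTGCGCAA (0.185%) or the NRF1 letters GCGCATGCG (1.81%). GC content of these promoters ran between 41.7% at Rptor and 78% at Fnip2, around a median of 52.7% for all promoters. A match of letters is a description of the window and not a bound site.

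All 10 gene starts had an accessible region, and 9 of them were found in every one of the 24 libraries. These were the starts of Rptor, which encodes the scaffold subunit that gives mTORC1 its substrates (chr11:119602732-119603608, mm10), and of Mtor, which encodes the kinase (chr4:148448222-148449318). They also included the starts of Flcn (chr11:59809059-59810437) and of its partners Fnip1 (chr11:54437787-54438783) and Fnip2 (chr3:79567423-79568448), which together form the complex that sets the nucleotide state of the Rag GTPases RagC and RagD. The remaining ones were the starts of Rragc, the gene of RagC (chr4:123916898-123918108), of Tsc1, a subunit of the TSC complex (chr2:28640636-28641815), of Lyst, a regulator of lysosome size that is mutated in the beige mouse (chr13:13589994-13591032), and of Slc17a5, the gene of sialin, which exports sialic acid from lysosomes (chr9:78587576-78588924). The region at the start of Rragd, the gene of RagD (chr4:32982615-32983996), was found in 5 of 6 diabetic stimulated libraries and in all 18 others. A region present in 23 or 24 libraries cannot pass the tests used here, so none of these 10 regions was tested in any comparison. Weaker regions lay just upstream of the starts of Fnip1 and Lyst. The Fnip1 one (chr11:54437384-54437686) was in 1 stimulated and 5 unstimulated libraries and was tested but not called. The Lyst one (chr13:13589619-13589850) was in 4 stimulated and 0 unstimulated libraries and could not be tested.

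The strength of these start regions differed between genes. The authors' fold enrichment over local background, taken as the median over libraries, was highest at Lyst (12.2), Rragc (11.3), Slc17a5 (10.8) and Mtor (10.4). These 4 stood at the median list percentile of 96.3, 94.4, 96.0 and 94.9, the percentile being the rank of the peak's −log10 q-value within its own list. Fnip2 (8.90 and percentile 92.8), Tsc1 (9.04 and 72.3), Flcn (8.04 and 69.7), Fnip1 (7.70 and 68.7) and Rptor (7.97 and 57.1) lay lower. Rragd had the weakest start, with a median fold of 5.88 at percentile 34.8. These values rank peaks within a list and were not compared between groups.

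**Figure D1:**
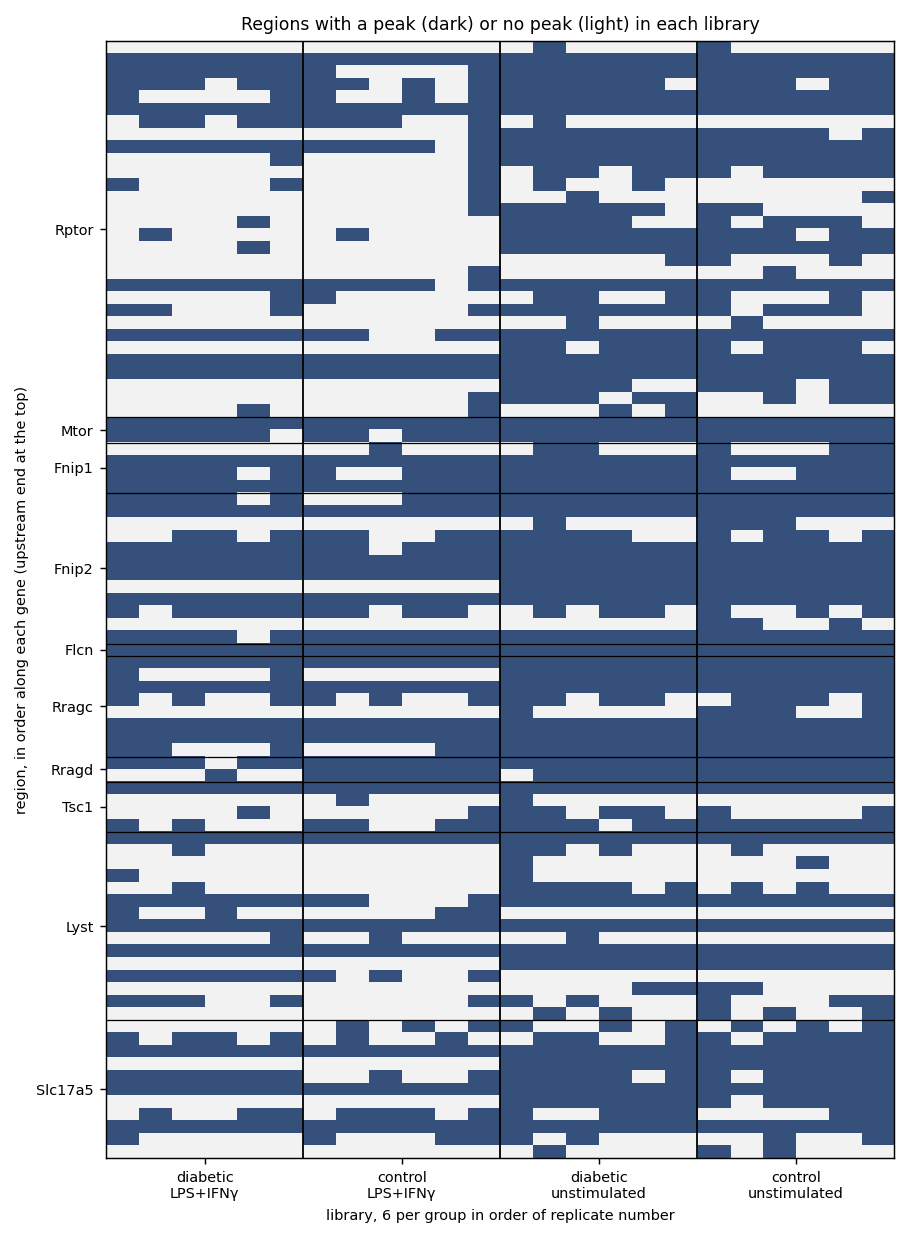
Each row is 1 of the 89 regions found in at least 2 libraries, ordered along its gene, and each column 1 of the 24 libraries; dark cells have a peak and light cells none. The main start regions of 9 of the 10 genes are dark throughout, while many Rptor rows are light in most stimulated libraries and dark in most unstimulated ones.

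The 10 genes together had fewer peaks in stimulated than in unstimulated macrophages. The summed number of peaks at the 10 genes was 46 at the lowest, 50.5 at the median and 59 at the highest in diabetic stimulated libraries, and 41, 45.5 and 64 in control stimulated libraries. It was 65, 70.5 and 78 in unstimulated diabetic libraries and 62, 69 and 75 in unstimulated control libraries. The states overlapped only through replicate 6 of control stimulated macrophages, with 64 peaks, and replicate 2 of unstimulated control macrophages, with 62. Total peak numbers also differed, at 53703 ± 4511 in diabetic stimulated, 47268 ± 4535 in control stimulated, 55522 ± 4925 in unstimulated diabetic and 55990 ± 3486 in unstimulated control libraries (SD, n = 6 each). Per 1000 peaks of the library, the 10 genes held 0.963 ± 0.0698 and 1.01 ± 0.0996 peaks in diabetic and control stimulated libraries, against 1.28 ± 0.0391 and 1.22 ± 0.0264 in unstimulated diabetic and control ones. On that scale the states did not overlap, the highest stimulated library standing at 1.16 and the lowest unstimulated one at 1.19.

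Rptor had the largest difference of the 10 genes. It had 10 to 18 peaks with a median of 13 in diabetic stimulated libraries and 6 to 23 with a median of 10 in control stimulated libraries. Unstimulated diabetic libraries had 21 to 26 with a median of 21, and unstimulated control libraries 18 to 26 with a median of 22. The value of 23 came from control stimulated replicate 6, the library with the most peaks in its group (54960), and the next highest in that group was 13. The mean was 12.6 ± 4.58 peaks in stimulated and 22.2 ± 2.72 in unstimulated libraries (SD, n = 12 each), a difference of -9.58 peaks, which was -5.83 when all lists were cut to the same length. Rptor is also the longest of the 10 genes, with a body of 297 kb and 30 of the 89 regions.

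The lysosomal genes followed. Slc17a5 averaged 6.17 ± 1.03 peaks in stimulated and 8.75 ± 1.54 in unstimulated libraries (SD, n = 12 each, here and in the next sentences). Lyst averaged 5.83 ± 1.47 in stimulated and 8.17 ± 1.40 in unstimulated libraries. The folliculin partner gene Fnip2 averaged 8 ± 1.21 in stimulated and 9.92 ± 1.08 in unstimulated libraries, and the Rag GTPase gene Rragc 5.58 ± 1.08 in stimulated and 7.42 ± 0.793 in unstimulated ones. In each of these genes the ranges of the states overlapped. Flcn, Rragd and Tsc1 each differed by -0.583 peaks, Fnip1 by -0.0833 and Mtor by 0.167, and none of these 5 genes had more than 5 peaks in any library. With all lists cut to the same length, these differences were -0.167 at Flcn, 0.25 at Rragd, -0.25 at Tsc1, 0.417 at Fnip1 and 0.333 at Mtor, so the sign turned at Rragd and Fnip1. At that length the differences at Slc17a5, Lyst, Fnip2 and Rragc were -1.5, -1.33, -1.5 and -1.25.

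**Figure D2:**
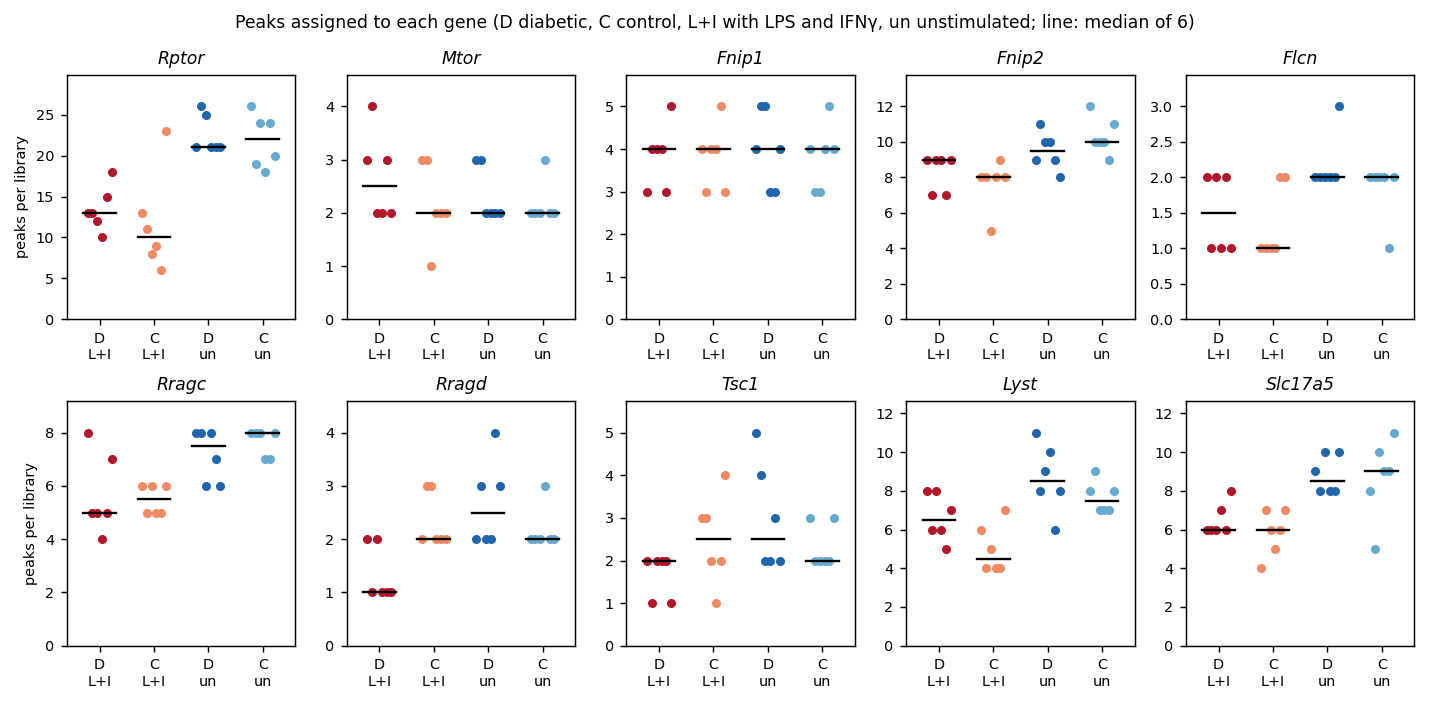
Number of peaks assigned to each gene in each library, by group (diabetic with LPS and IFNγ, control with LPS and IFNγ, diabetic unstimulated, control unstimulated), with a line at the median of 6. At Rptor the stimulated medians are 13 and 10 and the unstimulated ones 21 and 22, with 1 control stimulated library at 23; Mtor and Fnip1 show no such step.

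Each region was next marked as present or absent per library, and its presence was compared between states by a two-sided Fisher's exact test with Benjamini-Hochberg adjustment over all regions that could pass (adjusted p under 0.05, 12 against 12 libraries). Of the 41 regions of the 10 genes in that test, 16 (39%) were called as found in fewer stimulated libraries and 2 (4.88%) as found in more. Over all 31219 regions tested, the shares were 18.9% and 9.19%. The median difference in libraries was -1 for the 89 regions and 0 for all 80598. Nothing is read from these shares, since the genes were chosen with this comparison in view. Rptor held 10 of the 16 regions, Rragc and Slc17a5 2 each, and Fnip2 and Lyst 1 each; Mtor, Fnip1, Flcn, Rragd and Tsc1 held none.

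A complete separation, with a peak in none of the 12 stimulated and in each of the 12 unstimulated libraries, was seen in 3 of the 89 regions. Over all 80598 regions, 141 (0.175%) showed that pattern. The reverse was shown by 233 (0.289%) of all regions and by neither of the 2 regions called as found in more. Nothing is read from these shares either, since the genes were chosen with this comparison in view. One of the 3 lay in Fnip2, 27.9 kb past its start (chr3:79539668-79540030), where the authors' fold was between 5.94 and 9.03 in the unstimulated libraries. Another lay in Lyst, 58.8 kb past its start (chr13:13648970-13649489), with folds between 6.05 and 11.4. The last lay in Slc17a5, 8.99 kb past its start (chr9:78578871-78579262), with folds between 6.22 and 12.6. All 3 stood near the middle to upper part of their lists, at median percentiles of 65.0, 65.7 and 65.4. No genome of this build was at hand, so their sequences are not shown.

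A second Slc17a5 region, 3801 bp beyond the far end of the gene (chr9:78532548-78532831), was found in 0 of 6 diabetic and 0 of 6 control stimulated libraries, against 6 of 6 unstimulated diabetic and 5 of 6 unstimulated control ones. It lay between regions that every library kept: its neighbour chr9:78533279-78533850 was found in all 24, as was chr9:78527255-78527830, the strongest region of Slc17a5 with a median fold of 15.2. At Rragc, a region 3.91 kb past the start (chr4:123921221-123921481) was found in 2 diabetic and 0 control stimulated libraries and in all 12 unstimulated ones. A region 25628 bp beyond the Rragc body (chr4:123962452-123962864) was found in 3 diabetic and 2 control stimulated libraries and in all 12 unstimulated ones. Between them stood the strongest region of the gene, chr4:123927923-123928454, with a median fold of 15.98 and a peak in all 24 libraries.

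The 10 Rptor regions were spread over its body between 68.3 kb and 273 kb past the start. The clearest was chr11:119796332-119796794, 193.7 kb in, found in 1 diabetic and 0 control stimulated libraries and in all 12 unstimulated ones. The region chr11:119710790-119711247 was found in 1 diabetic and 1 control stimulated library, again with all 12 unstimulated libraries positive. The regions chr11:119692939-119693344 and chr11:119792995-119793534 were found in 0 and 1 diabetic and in 1 and 1 control stimulated libraries, against 6 diabetic and 5 control unstimulated libraries each. Weaker regions were chr11:119825889-119826172 and chr11:119874874-119875279, with no peak in any stimulated library and a peak in 9 of 12 unstimulated libraries each. Of the rest, chr11:119720608-119721057 had 1 stimulated against 9 unstimulated libraries, and chr11:119780269-119780574 and chr11:119875809-119876079 had 1 against 8 each. The region nearest the start, chr11:119670997-119671483, had 5 against 12. Beside these, 4 Rptor regions were found in all 24 libraries, among them chr11:119863015-119863989 with a median fold of 10.7, so every library had peaks both at the start and deep in the body of the gene.

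The other 2 called regions were found in more stimulated libraries. In Lyst, 87.6 kb past the start (chr13:13677845-13678178), a peak was found in 6 of 6 diabetic and 3 of 6 control stimulated libraries and in none of the 12 unstimulated ones. It lay downstream of the Lyst region that no stimulated library had. In Rptor, 79.6 kb past the start (chr11:119682249-119682727), a peak was found in 4 diabetic and 4 control stimulated libraries, against 1 unstimulated diabetic and 0 unstimulated control libraries. Both genes thus carried regions of either direction in 1 body.

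**Figure D3:**
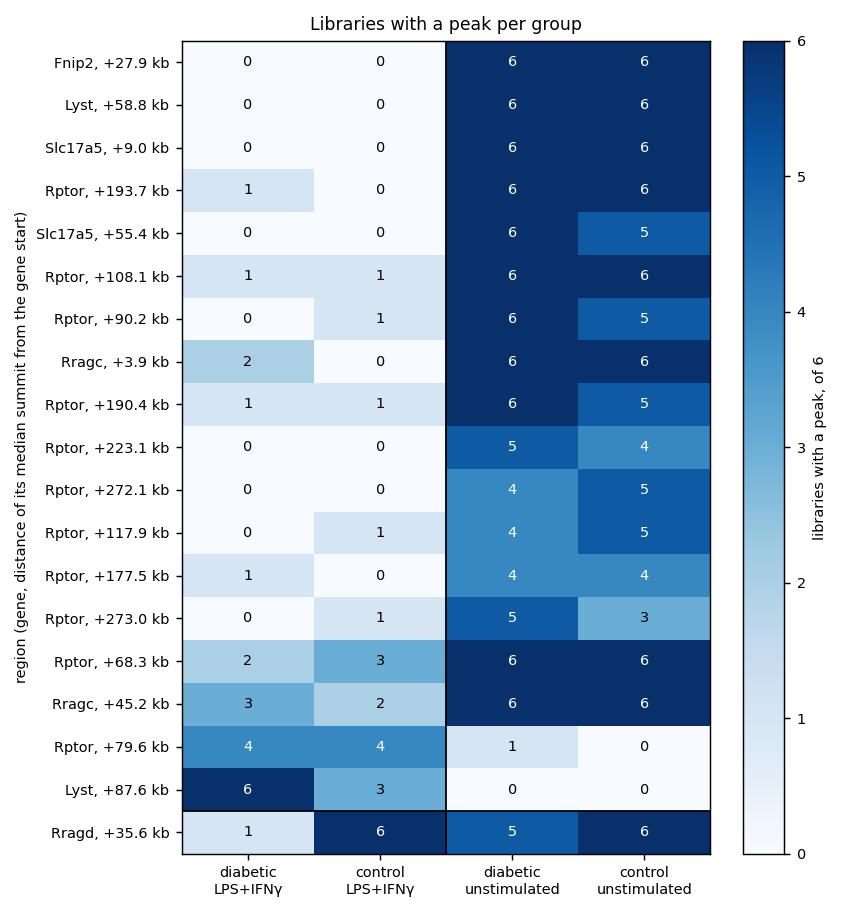
Number of libraries of 6 with a peak, by group, in the 18 regions called in the stimulation comparison and, below the line, the Rragd region with the smallest p between diabetic and control stimulated macrophages. Regions are named by gene and distance of the summit from the gene start; 16 rows are dark on the unstimulated side, 2 on the stimulated side, and the Rragd row is pale only in diabetic stimulated libraries.

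Of the 10 regions at the promoter windows, 9 (90%) were found in all 24 libraries and none could be tested. Over the whole series, 77.8% of 9503 promoter regions were found in all 24 libraries, 990 were tested and 1.33% of the 9503 were called. Of the other 79 regions of the 10 genes, 14 (17.7%) were found in all 24, 41 were tested and 18 (22.8%) were called, against 21.6% and 12.2% of 71095 regions elsewhere in the series. The 12 regions within 1 kb of a start had a median width of 1068 bp and a median fold of 8.47. They took in the weaker upstream regions of Fnip1 (303 bp, median fold 4.41) and Lyst (232 bp, median fold 3.46). Those inside the body had a median width of 412 bp and a median fold of 5.78, and those outside it 397 bp and 5.25. Weaker regions lie nearer the calling threshold, so a missing peak says that the region was under that threshold and not that it was closed.

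**Figure D4:**
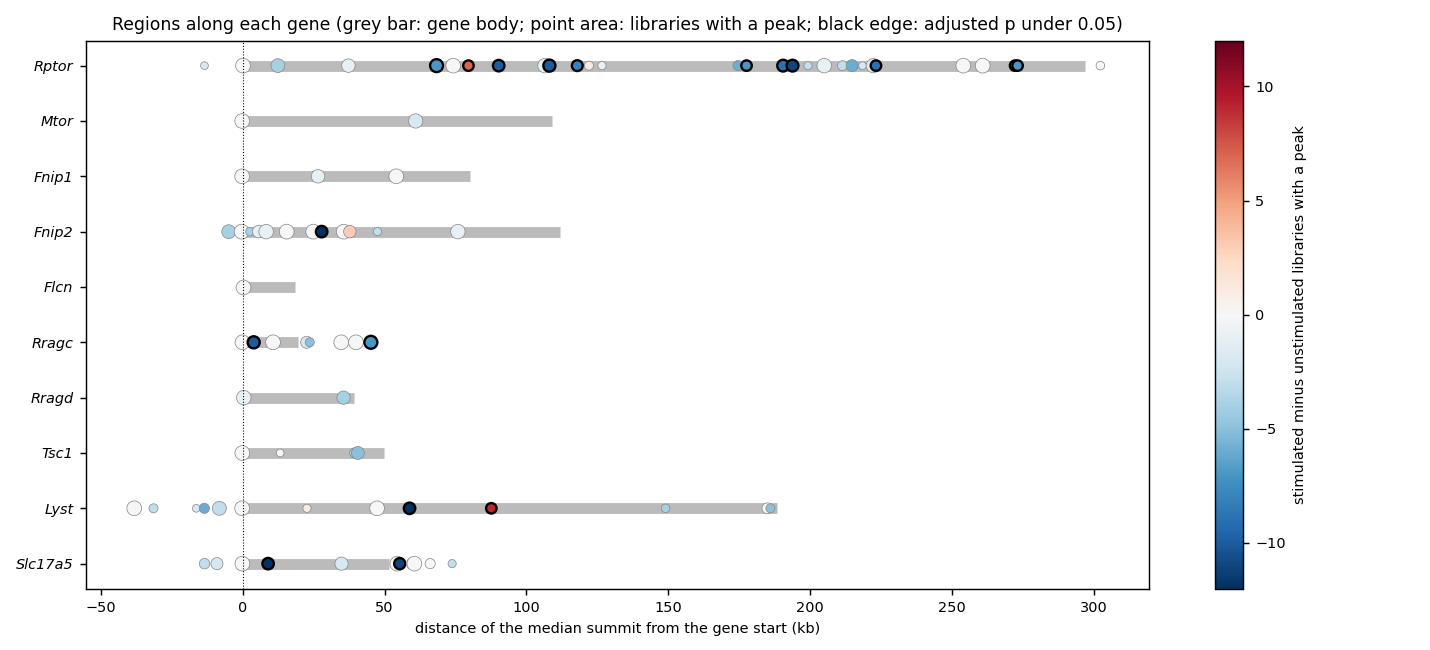
Position of each region relative to the gene start in kb, along the gene body (grey bar); colour gives the number of stimulated minus unstimulated libraries with a peak (at most 12 each), area the number of libraries in all, and a black edge the 18 called regions. Dark blue points sit inside Rptor, Fnip2, Lyst and Slc17a5 and on both sides of the Rragc end. The points of the main start region of each gene are white or nearly so.

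The 16 regions found in fewer stimulated libraries each had a peak in 0 to 5 of 12 stimulated and in 8 to 12 of 12 unstimulated libraries. Diabetic stimulated libraries had a peak in 0 to 4 of them with a median of 2, and control stimulated libraries in 0 to 6 with a median of 1. Unstimulated diabetic libraries had a peak in 14 to 16 with a median of 14.5, and unstimulated control libraries in 11 to 16 with a median of 14.5. The value of 6 belonged to control stimulated replicate 6, and without that library the stimulated libraries had at most 4. These ranges follow from how the regions were called and are a description.

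With phenotypes pooled, fewer regions were called at equal list length. When every list was cut to its 41385 strongest peaks, 10 regions of 30 tested were called as found in fewer stimulated libraries and 2 as found in more, against 15.9% and 13.2% of all regions tested at that length. The 3 complete separations, 5 of the Rptor regions, the Rragc region at 3.91 kb and the second Slc17a5 region were among those 10. The summed difference at the 10 genes was -10.8 peaks at equal length, against -19.9 with all peaks. The part that total peak number plays in the result was not tested beyond this.

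The same comparison was also made within each phenotype, again as a description, since it uses the values in view when the genes were chosen. In diabetic macrophages, 23 regions were tested (6 against 6 libraries), 5 were called as found in fewer stimulated libraries and 1, the Lyst region at 87.6 kb, as found in more, against 3.44% and 5.47% of all 11708 regions tested. At equal list length, 8 of 16 were called as found in fewer and 1 as found in more, against 14.6% and 17.7% of all regions. In control macrophages, 19 regions were tested, 8 were called as found in fewer and 0 as found in more, against 27.5% and 8.41% of all 12111. At equal list length, 6 of 16 were called as found in fewer and 0 as found in more in control macrophages, against 18.8% and 15.6% of all regions. With all peaks, the 3 complete separations and the second Slc17a5 region were called in both phenotypes. With p-values adjusted over all 80598 regions, none of these within-phenotype calls passed, and neither did any other region of the series. The smallest p of 6 against 6 libraries is too large to pass that adjustment here, so this loss says nothing about these genes. Without control stimulated replicate 6, 12 of 27 regions tested in control macrophages were called as found in fewer, against 25.9% of all 17198. The adjustment also set a different bar in each phenotype. In diabetic macrophages only regions in 6 libraries of 1 state and 0 of the other passed, while control macrophages had calls short of that. The Rptor region chr11:119710790-119711247, in 1 of 6 stimulated and 6 of 6 unstimulated libraries of either phenotype, was called in control macrophages only. Each comparison has its own background share and bar, so the phenotypes' counts were not set against each other.

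No region at these genes was called between diabetic and control macrophages. In unstimulated macrophages, Fisher's exact test (6 against 6 libraries) called 0 of 11 regions between diabetic and control libraries after adjustment, and 0 had an unadjusted p under 0.05; over the series it called 0 of 8788 (0%), with 137 (1.56%) at an unadjusted p under 0.05. In stimulated macrophages it called 0 of 9 regions, with 1 at an unadjusted p under 0.05; over the series it called 0 of 9681 (0%), with 292 (3.02%) unadjusted. Zelen's exact test of the interaction, which asks whether the odds of a peak changed with stimulation by the same factor in both phenotypes, called 0 of 8 regions, with 0 at an unadjusted p under 0.05; over the series it called 0 of 9353 (0%), with 229 (2.45%) unadjusted. With 6 against 6 libraries the smallest p that Fisher's exact test can give is 0.00216. In unstimulated macrophages 3 regions of the series were in every diabetic and no control library, and 4 the reverse. In stimulated macrophages these numbers were 26 and 0. So few made it impossible for any region to pass adjustment, and the counts of 0 do not show that the phenotypes were alike.

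The region with the smallest p between phenotypes lay in Rragd, 35.6 kb past its start (chr4:33018380-33018788). It was found in 1 of 6 diabetic stimulated and 6 of 6 control stimulated libraries, and in 5 of 6 unstimulated diabetic and 6 of 6 unstimulated control libraries. Fisher's exact test between the stimulated phenotypes gave an unadjusted p of 0.0152 and an adjusted p of 0.502, with adjusted values between 0.328 and 1 over the alternatives run. The diabetic stimulated library that lacked a peak at the Rragd start was the only one of its group with a peak in this region. Rragd had 1 to 2 peaks with a median of 1 in diabetic stimulated libraries and 2 to 3 with a median of 2 in control stimulated ones, against 2 to 4 with a median of 2.5 in unstimulated diabetic and 2 to 3 with a median of 2 in unstimulated control libraries.

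Slc17a5 and Rptor each had a region that leaned the other way between stimulated phenotypes. The Slc17a5 region chr9:78552930-78553361 was found in 6 of 6 diabetic and 2 of 6 control stimulated libraries, and in 5 of 6 libraries of either unstimulated group. The Rptor region chr11:119615088-119615701 was found in 6 diabetic and 2 control stimulated libraries and in all 12 unstimulated ones. For both, Fisher's exact test between stimulated phenotypes gave an unadjusted p of 0.0606, and they are named here after their values were seen. No smaller p is possible for that number of positive libraries, so neither region was among those tested and neither has an adjusted p. The series leaned the same way, with 26 regions in every diabetic and no control stimulated library and 0 the reverse. Control stimulated lists were also shorter, with a mean of 47268 peaks against 53703 in diabetic stimulated ones. The part of list length in this lean was not tested.

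Other genes of mTORC1 control, 45 genes listed by their role in the pathway, had 208 regions. The list was made with earlier results of these data known, so its counts and p-values are a description. Of 69 tested in the stimulation comparison, 6 (8.7%) were found in more and 13 (18.8%) in fewer stimulated libraries by Fisher's exact test, close to the background of 9.19% and 18.9%. Among those found in more were a region in Rictor, the scaffold of the sister complex mTORC2 (chr15:6751004-6751434), and one in the transcription factor gene Mitf (chr6:97961936-97962347), each with a peak in all 12 stimulated and none of the 12 unstimulated libraries (Fisher's exact test, adjusted p = 6.17e-05). Prr5l, another mTORC2 gene, had a region in 10 stimulated and 0 unstimulated libraries, and a region near Nprl3, part of the GATOR1 complex that acts on the Rag GTPases, was in 11 stimulated and 1 unstimulated library. Mitf had a further region in 9 stimulated and 1 unstimulated library, and one in 3 stimulated and 12 unstimulated libraries. Among those found in fewer was a region near the lysosomal arginine sensor gene Slc38a9 (1 stimulated and 12 unstimulated libraries). Tfeb had such a region (3 stimulated and 12 unstimulated), and Deptor, which encodes an inhibitor of mTOR, had 4. At equal list length 55 regions were tested and the counts became 12 found in more and 7 in fewer, against 13.2% and 15.9% of all regions at that length, and the Tfeb region and 2 of the 4 Deptor regions no longer passed.

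Other lysosomal genes, 43 in all, had 220 regions, and this list too is a description made with earlier results known. Of 80 tested, 3 (3.75%) were found in more and 18 (22.5%) in fewer stimulated libraries, against the background of 9.19% and 18.9%. Found in more were regions at Slc15a3, a lysosomal peptide and histidine transporter gene (chr19:10845462-10845834, 12 stimulated and 0 unstimulated libraries, adjusted p = 6.17e-05 by Fisher's exact test), at the cholesterol transfer protein gene Npc2 (9 stimulated and 0 unstimulated) and near Plekhm1, an adaptor for lysosome fusion (10 stimulated and 3 unstimulated). Found in fewer were regions at Ap3b1, a subunit of the AP-3 sorting adaptor (1 stimulated and 11 unstimulated), near the late endosome GTPase gene Rab7 (2 stimulated and 11 unstimulated), at the hexosaminidase gene Hexa (1 stimulated and 9 unstimulated) and 2 at Atp6v0d2, a proton pump subunit gene. At equal list length 66 regions were tested and 8 were found in more and 8 in fewer, against 13.2% and 15.9% of all regions at that length; the Ap3b1, Hexa and both Atp6v0d2 regions no longer passed. No region of either list was called between diabetic and control macrophages, in 21 and 14 regions tested for mTORC1 control and 30 and 30 for the lysosome, unstimulated and stimulated, by Fisher's exact test, or in the interaction by Zelen's exact test, in 25 regions each.

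By the number of peaks over the 24 libraries, each gene's numbers taken relative to its own mean, the genes most like Rptor among 5166 compared were Col4a2, Plekho2 and Adgre5, with mean absolute differences of 0.120, 0.132 and 0.136. For Slc17a5 they were Spred2, Atp6v1c1 and Rcbtb2 (0.116, 0.118 and 0.120), and for Lyst they were Azin1, Tbc1d2b and Rora (0.117, 0.117 and 0.118). Col4a2 averaged 5.42 peaks in stimulated and 8.92 in unstimulated libraries. The libraries share depth and peak number, which such a likeness takes in.

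The edge of the 50 kb limit fell between a Lyst peak 38154 bp away, in a region upstream of the gene found in all 24 libraries (chr13:13551997-13552424, median fold 13.7), and peaks 53751 bp or more from Rragc. The 56 peaks beyond the limit lay in 4 regions. The nearest 2 of these were found in 24 and 23 libraries, and the other 2 in 8 and 1.

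The libraries carried the marks of macrophages: 9 of 10 macrophage genes had a peak in all 24, with summed peaks of 35 to 51 in diabetic stimulated, 33 to 52 in control stimulated, 45 to 56 in unstimulated diabetic and 47 to 52 in unstimulated control libraries. No peak was found at the neutrophil genes Elane, Ly6g and Ngp, the T and NK cell genes Cd8a and Nkg7, the B cell genes Cd79a and Cd79b, the erythroid genes Gata1 and Alas2 or the mast cell gene Fcer1a. Other genes of these lists had a peak in all 24 libraries: 2 of 8 neutrophil, 4 of 8 T and NK cell, 1 of 6 B cell, 2 of 6 erythroid, 2 of 6 stromal and endothelial, 4 of 5 dendritic and 2 of 4 mast cell genes. Summed peaks at the neutrophil list were 4 to 9 in diabetic stimulated, 4 to 8 in control stimulated, 7 to 9 in unstimulated diabetic and 6 to 8 in unstimulated control libraries. The dendritic cell list had 17 to 30 in diabetic stimulated, 16 to 23 in control stimulated, 23 to 27 in unstimulated diabetic and 22 to 28 in unstimulated control libraries. Peaks at T and NK cell genes summed to 9 to 14 in diabetic stimulated, 7 to 11 in control stimulated, 11 to 18 in unstimulated diabetic and 10 to 13 in unstimulated control libraries. At the B cell genes there were 3 to 10 in diabetic stimulated, 2 to 8 in control stimulated, 3 to 8 in unstimulated diabetic and 6 to 9 in unstimulated control libraries. For the erythroid list the sums were 2 to 4 in diabetic stimulated, 2 to 5 in control stimulated, 2 to 6 in unstimulated diabetic and 2 to 6 in unstimulated control libraries. The stromal and endothelial genes had 8 to 20 in diabetic stimulated, 9 to 17 in control stimulated, 11 to 14 in unstimulated diabetic and 9 to 15 in unstimulated control libraries. Sums at the mast cell genes were 5 to 9 in diabetic stimulated, 2 to 6 in control stimulated, 2 to 7 in unstimulated diabetic and 3 to 6 in unstimulated control libraries. Their part in the results was not tested.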

How the data were processed

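ATAC-seq libraries were made from nuclei of 50000 macrophages each, with fragments above 1200 bp removed and single reads of 50 bp, per the labels' protocols. Build mm10 and the tools Bowtie2 2.2.6, MACS2 2.1.1, FastQC 0.11.3 and Trim Galore 1.8 come from the submitters' processing notes. Tool settings, a Tn5 shift and read numbers are not given in the sources, so depth is unknown. The authors deposited 1 narrowPeak list per library with a score, a fold enrichment, −log10 p-values and −log10 q-values and the summit offset of each peak. Such values served inside 1 list at a time.

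Peaks were merged across the 24 lists (overlap of at least 1 bp), regions in at least 2 libraries were kept, and found or not found was tested by Fisher's exact test and Zelen's exact test, adjusted by Benjamini-Hochberg at 0.05 over regions that could reach an unadjusted p under 0.05 (Python 3.11.15, numpy 2.4.6, pandas 2.3.3, scipy 1.17.1). The tests were also run on simulated data. Apart from the changes planted there, each library was drawn independently at the same rate per region. That run therefore does not cover list lengths that differ between groups or libraries that share a mouse. Genes came from RefSeq (GRCm38.p6), 1 peak being tied between Mtor and Angptl7. The genes, the lists and the rule for named regions (start regions, called regions, smallest p between phenotypes) were chosen with earlier results of these data known. The labels do not say that libraries came from separate mice, and p-values then measure the spread between these libraries. Per the series design each sample gave both states, but no label ties equal numbers to 1 mouse, so libraries were not paired. Alternatives were equal list length, a −log10 q of at least 5, an overlap of at least 100 bp, regions in 1 library, adjustment over all regions, summits in the gene body, a replicate block and leaving out control stimulated replicate 6.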

Additional observations from a re-analysis of the deposited data

Results flagged for a closer look

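Peak numbers per gene, their sum over the 10 genes and that sum per 1000 peaks were searched for a library apart from the other 5 of its group, by the gap to its neighbour over the group's range (above 0.625). Of 48 sets of 6 libraries, 5 had one. Chance gives about 1 in 20 for continuous values, which does not carry over to small whole numbers, where 1 peak more or less than 5 equal values passes. Fnip2 had 5 peaks in control stimulated replicate 3, where the others had 8 or 9. Flcn had 3 peaks in unstimulated diabetic replicate 6, where the others had 2, and 1 peak in unstimulated control replicate 5, where the others had 2. Mtor and Rragd had 3 peaks each in unstimulated control replicate 4, where the others had 2.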

How the results depend on the processing

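At equal list length, regions of the 10 genes found in fewer stimulated libraries numbered 10 with phenotypes pooled (16 with all peaks). They numbered 8 in diabetic macrophages (5) and 6 in control macrophages (8), and the summed difference was -10.8 peaks (-19.9). There the mTORC1 list had 12 found in more and 7 in fewer (6 and 13), and the lysosome list 8 and 8 (3 and 18); that alternative for the lists was chosen after seeing the data. A −log10 q of at least 5 left 1 of 32 tested regions found in more with phenotypes pooled (2), against 7.4% of all regions tested there. Adjustment over all regions left 1 of 89 found in more with phenotypes pooled (2), against 2.12% of all regions. It also left 0 found in more and 0 in fewer in diabetic macrophages (1 and 5) and 0 in fewer in control macrophages (8). Within each phenotype it likewise called 0 of all 80598 regions of the series. A replicate block, tried because groups share numbers, left 5 found in fewer in control macrophages (8), where 5 regions could be tested. Of all 1818 regions of the series tested there, 1078 (59.3%) were found in fewer and 441 (24.3%) in more. Most regions that the block could test in control macrophages were thus called, so 5 of 5 says little about these genes. With phenotypes pooled the block left 15 of 27 tested regions found in fewer (16 of 41), against 4381 of 19048 in the series. Correlations of same-numbered libraries' deviations ran between -0.0541 and 0.0159, so the numbers were not taken as pairs. Without control stimulated replicate 6, chosen after seeing the data, 18 of 45 tested regions were found in fewer with phenotypes pooled (16 of 41). Over the series, 6806 of 35811 tested regions were found in fewer there, and 5901 of 31219 with all libraries. In control macrophages 12 of 27 were found in fewer (8 of 19), against 25.9% of all regions tested. The summed difference was -21.2 (-19.9). No called region turned round. The mean difference in peaks turned at Rragd (0.25 at equal length) and Fnip1 (0.417 at equal length, 0.333 with summits in the body), and the balance of the mTORC1 list turned at equal length. Of the 18 named regions, 6 were no longer called at equal length, 6 at the higher q limit, 5 with all regions adjusted and 1 under the block; the cause was not tested. The counts of 0 between phenotypes and in the interaction recurred in each alternative run, as they did for all regions of the series. The block could test 0 regions in unstimulated and 1 in stimulated macrophages, so its zeros carry no information. No block was run for the interaction. Read totals are unknown, so a region near the calling threshold cannot be told from one short of reads.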
